A study of Mus musculus with 12 samples.

Results

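The 10 genes described here are the forkhead transcription factor genes Foxo1, Foxo3 and Foxp1 and 7 genes tied to FOXO activity or to the resting state of lymphocytes, Tsc22d3, Btg1, Btg2, Tob1, Txnip, Pik3ip1 and Sesn1. They were chosen by name, as all probe sets annotated to these genes, and make up 10 of the 18193 genes that the array reads with a probe set of their own. The arrays read RNA of splenic follicular B cells, sorted from 129SvEv mice (male, 8 weeks old) and held in culture for 0, 2 or 12 h with 10 µg/mL of anti-IgM, which crosslinks the receptor for antigen on the B cell. The 6 groups were cko at 0 h, 2 h and 12 h (labelled ZFXcko, a conditional knockout of the zinc finger factor gene Zfx) and wild type at 0 h, 2 h and 12 h (labelled ZFXwt), with 2 arrays each. No source used here gives the Cre driver of the cko, the share of cells with a deleted allele or any pooling of mice. The comparisons ask how each gene answered receptor crosslinking over time in each genotype, and how cko cells differed from wild-type cells at each time.

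FOXO factors are forkhead proteins that bind DNA and keep lymphocytes at rest. When the B cell receptor activates PI3K and AKT, AKT phosphorylates FOXO proteins, which then leave the nucleus, and their target genes are transcribed less. In resting B cells FOXO1 is known for driving homing receptors and inhibitors of growth, while FOXP1 is a related forkhead factor needed in B cell development. The other genes restrain growth at separate points: TSC22D3 (also called GILZ) is a leucine zipper protein induced by glucocorticoids and FOXO factors, BTG1, BTG2 and TOB1 recruit the CCR4-NOT deadenylase that shortens mRNA tails, TXNIP binds thioredoxin and limits glucose uptake, PIK3IP1 is a membrane protein that inhibits PI3K, and SESN1 is a sestrin that restrains mTORC1.

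The promoters of the 10 genes were read from RefSeq (GRCm38.p6), as 15 windows that run from 250 bases before to 50 bases after a gene's start. All 10 genes matched. A FOXO core, GTAAACA on either strand (TGTTTAC on the opposite strand), lay in the windows of 3 genes, Txnip, Btg1 and Sesn1. It lies in 3.65% of the 32851 mouse windows of the same length and in a window of 4.05% of the genes. The palindrome TGACGTCA, the cyclic AMP response element, lay in the window of Btg2 and in 1.79% of all windows, or a window of 2.03% of the genes, and this motif was searched for after the sequences had been read. The bases before the start of Btg2 (chr1:134079156-134079405, minus strand), Txnip (chr3:96557707-96557956, plus strand) and Btg1 (chr10:96616751-96617000, plus strand), and 23 bases around the match of Sesn1 (chr10:41810588-41810610, plus strand), are shown because these 4 genes carry the matches and differ in how they answered anti-IgM. Capitals mark the motif, and each line runs 5′ to 3′ on the strand of the gene.
Btg2: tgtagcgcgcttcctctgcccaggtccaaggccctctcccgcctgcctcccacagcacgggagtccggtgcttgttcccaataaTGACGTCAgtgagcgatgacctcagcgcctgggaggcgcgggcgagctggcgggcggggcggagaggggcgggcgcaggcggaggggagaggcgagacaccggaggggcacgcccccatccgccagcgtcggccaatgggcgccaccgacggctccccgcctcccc
Txnip: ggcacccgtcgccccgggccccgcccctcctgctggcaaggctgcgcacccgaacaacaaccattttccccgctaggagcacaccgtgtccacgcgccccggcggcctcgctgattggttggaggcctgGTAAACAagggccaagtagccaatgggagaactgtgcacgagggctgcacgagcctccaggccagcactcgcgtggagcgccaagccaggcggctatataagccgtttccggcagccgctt
Btg1: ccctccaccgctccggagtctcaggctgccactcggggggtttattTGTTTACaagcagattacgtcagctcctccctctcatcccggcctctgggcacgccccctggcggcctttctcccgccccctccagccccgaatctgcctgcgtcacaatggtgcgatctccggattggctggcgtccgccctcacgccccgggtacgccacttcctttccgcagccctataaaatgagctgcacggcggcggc
Sesn1: ccttctacTGTTTACcagccttt
The match began 166 bases before the start in Btg2, 121 in Txnip and 204 in Btg1, and 23 bases after the start in Sesn1. A match is a description of the letters and not a measured binding site.

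The genes were read by 34 probe sets that match 1 gene each, from 2 for Btg2, Tob1, Txnip and Pik3ip1 to 8 for Foxp1. Of these, 30 passed the filter on low signals. The 4 that did not were 1 each of Foxo1, Foxo3, Tob1 and Txnip, and 1 further probe set annotated to both Foxo3 and Gm38485, with signals of 10.5 to 60.4, was not used. The values are linear signals, and differences are given as log2 differences of log2(signal + 16) ± SE, with n = 2 arrays a group. A difference was called at an adjusted p under 0.05 (limma, Benjamini-Hochberg over 21906 probe sets). A gene is counted by its brightest probe set, the one with the highest mean over the 12 arrays. Rose, fell, higher and lower are written of called differences alone. The labels' protocols speak of duplicate hybridization and do not say whether the arrays of a pair came from separate mice, so p reflects the spread between 2 arrays, which may be technical.

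Across the series, duplicate arrays correlated at 0.978 to 0.987 over the probe sets tested. By their control probe sets the arrays formed 2 sets of 6. In cko at 2 h, cko at 12 h and wild type at 2 h the actin 5′ signal was 8.41 to 19.1% of the 3′ signal and the 18S ribosomal RNA signal was 1022 to 1299. In cko at 0 h, wild type at 0 h and wild type at 12 h these were 1.80 to 3.33% and 6636 to 10892.5. The comparisons of cko with wild type at 0 h and 2 h, of 12 h with 0 h in wild type and of 12 h with 2 h in cko each stay within 1 set of arrays, and the interaction at 2 h balances the sets. All other comparisons cross them. Groups within a set also differed in these controls. The actin value was 10.6 and 10.8% in cko and 8.51 and 8.41% in wild type at 2 h. It was 19.1 and 19.0% in cko at 12 h. At 0 h it was 1.99 and 1.80% in cko and 3.27 and 3.33% in wild type. The 18S signal in wild type was 6636 and 7305 at 0 h and 10892.5 and 10672.5 at 12 h. A comparison within 1 set is thus not free of such differences. Of 16 B cell markers 15 were on the array, with Cd74 at 18430.3 to 39504, Cd79b at 6620.4 to 22937, Ms4a1 at 4672 to 11885 and Pax5 at 86.2 to 936, and their summed signal at 0 h was 178623 to 183459 in cko and 147928 to 154021 in wild type. At 2 h it was 79656.5 to 85468 in cko and 79841 to 81611 in wild type, and at 12 h 90326 to 95129 in cko and 94484.5 to 97247 in wild type. Of the 15 markers 12 fell at 2 h in cko (median -1.51) and 11 in wild type (median -1.06), and 11 fell at 12 h in cko and 10 in wild type. Over all genes tested 39.0% were lower at 2 h in cko and 36.0% in wild type, and 32.8% and 22.9% at 12 h. The summed signal of 15 myeloid markers, S100a8 and S100a9 the brightest, was 10219.9 to 10262.5 in cko and 21988 to 22704 in wild type at 0 h. It was 3036 to 3385 in cko and 16774 to 16862 in wild type at 2 h, and 4011 to 4179.6 in cko and 8179 to 8976 in wild type at 12 h. The myeloid marker Itgam was near 0 (0.71 to 18.3). The summed signal of 12 T and NK cell markers was 1742 to 2043 in cko and 1879 to 1917 in wild type at 0 h and 489 to 720.5 in the other 4 groups, with Cd4 at 3.45 to 17.6. Others were brighter, with Thy1 at 16.7 to 645, Nkg7 at 42.4 to 426 and Cd3d at 82.5 to 231. The sum of 7 erythroid markers, Tfrc the brightest, was 1277 to 1376 in cko and 2716.5 to 2967 in wild type at 0 h, 3765 to 3953 in cko and 4645 to 4814 in wild type at 2 h, and 1977 to 1999 in cko and 3041 to 3117 in wild type at 12 h. Tfrc alone ran from 868 to 3812, and the next brightest erythroid marker, Slc4a1, reached 988, so the sum largely follows Tfrc. Of the 6 erythroid markers tested, 2 fell and 1 rose at 2 h in cko, with a median of -0.41 against -0.32 over all genes. In wild type 3 fell and 1 rose, with a median of -0.33 against -0.24. The part of these cells in the differences below was not tested. Zfx itself was higher in cko, by its brightest probe set, with 2189 to 2618 in cko against 983 to 1041 in wild type at 0 h. Where its probe sets lie relative to the deleted part is not stated in any source used here, so this does not check the genotype.

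Most of the 10 genes changed when the cells met anti-IgM. A fall or rise in time is given against 0 h of the same genotype. In cko 5 of the 10 genes fell at 2 h (Foxo1, Foxp1, Tsc22d3, Txnip and Sesn1), 3 rose (Btg2, Tob1 and Pik3ip1) and 2 were not called (Foxo3 and Btg1), with Foxp1 turning the other way under median scaling, quantile normalization and the mean of its probe sets and Txnip under median scaling. Pik3ip1 turned by the mean of its probe sets (-0.016). A model with a term for the control-probe set and 1 time effect for both genotypes gave common 2 h responses of -0.53 for Pik3ip1 and -0.48 for Btg2. It gives no cko response of its own. Its term for the set is the genotype difference at 12 h beyond the mean of those at 0 h and 2 h, so it cannot tell set from genotype. Over the 12190 genes tested 39.0% were called lower and 23.8% higher, and the median log2 differences were -0.23 for the 10 genes and -0.32 for all genes. At 12 h 6 fell (Foxo1, Tsc22d3, Btg1, Txnip, Pik3ip1 and Sesn1), 2 rose (Foxo3 and Btg2) and 2 were not called, against 32.8% lower and 25.7% higher over all genes, with medians of -0.61 and -0.20. Signals of RNA from a cell sort cannot tell fewer cells of a type from less RNA per cell.

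In wild type 7 of the 10 genes fell at 2 h. Foxo1, Foxo3, Foxp1, Tsc22d3, Txnip, Pik3ip1 and Sesn1 were lower than at 0 h, Btg2 and Tob1 were higher, and Btg1 was not called, although Foxp1 turned the other way under median scaling, quantile normalization and the mean of its probe sets. At that time 36.0% of all genes were lower and 23.3% higher. The median log2 difference of the 10 genes was -0.64, against -0.24 over all genes. At 12 h 8 of the 10 genes were lower than at 0 h and 0 were higher, Foxp1 and Tob1 being the 2 not called, while 22.9% of all genes were lower and 24.5% higher. The median of the 10 genes was then -1.03, against 0.03 over all genes. This comparison lies within 1 set of arrays by the control probes, and the comparisons at 2 h and 12 h share their 0 h arrays. With each array scaled to a common median signal, the median over all genes at 2 h was 0.020 in cko and 0.004 in wild type, and at 12 h it was 0.16 in cko. Under that scaling 3246 genes were lower and 3999 higher at 2 h in cko, against 4759 and 2897 without it. In cko at 12 h the numbers were 2336 and 4485, against 4001 and 3134, and in wild type at 2 h 3261 and 3616, against 4385 and 2846.

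**Figure D1:**
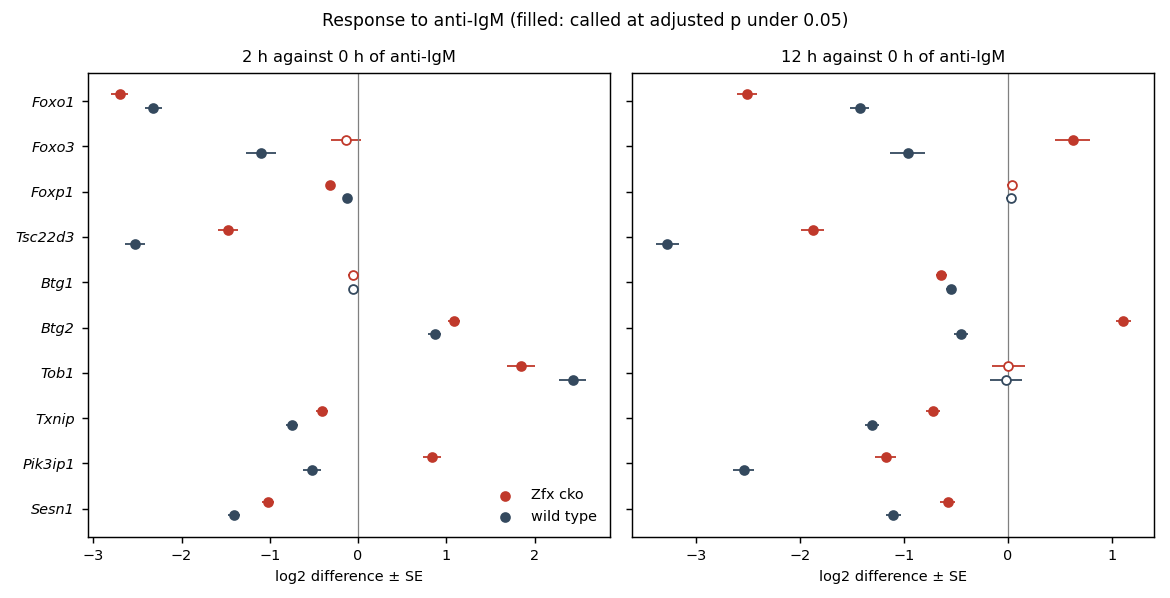
Log2 difference ± SE of 2 h (left) and 12 h (right) against 0 h of anti-IgM for the brightest probe set of each gene, with cko in red above wild type in blue-grey and filled points for calls at an adjusted p under 0.05. Foxo1, Tsc22d3 and Sesn1 lie left of 0 in all 4 comparisons, Tob1 lies right of 0 at 2 h and at 0 at 12 h, and Foxo3, Btg2 and Pik3ip1 have a genotype on each side of 0 in 1 of the panels or more.

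Foxo1, by its brightest probe set, fell steeply in both genotypes and was lower in cko than in wild type at 0 h, 2 h and 12 h. At 0 h its signal was 2995 and 3102 in cko and 3968 and 3623 in wild type. At 2 h it was 444 and 466 in cko and 769.6 and 724 in wild type. At 12 h it was 486 and 561 in cko and 1510.3 and 1298 in wild type. The cko arrays were below the wild-type arrays at each time with no overlap, and the gap was widest at 12 h. The fall at 2 h was -2.70 ± 0.094 in cko and -2.32 ± 0.094 in wild type, and at 12 h it was -2.51 ± 0.094 in cko and -1.43 ± 0.094 in wild type. Between 2 h and 12 h Foxo1 was not called in cko (0.19 ± 0.094, adjusted p = 0.12) and rose again in wild type (0.89 ± 0.094, adjusted p = 1.7e-06). The genotype difference was -0.31 ± 0.094, adjusted p = 0.024 at 0 h, -0.70 ± 0.094, adjusted p = 0.00015 at 2 h and -1.40 ± 0.094, adjusted p = 3e-08 at 12 h. The 0 h call did not hold with replicate 1 or replicate 2 of cko at 0 h left out (adjusted p = 0.11 and 0.066) or with replicate 1 of wild type at 0 h left out (0.16), and the cko rise from 2 h to 12 h was called without replicate 1 of cko at 12 h (0.29, adjusted p = 0.0497). The 0 h call was also lost without an intensity trend of the variance.

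The other Foxo1 probe sets did not all follow. By 1416981_at the gene was lower in cko at 0 h (-0.86 ± 0.10), at 2 h (-0.38 ± 0.10) and at 12 h (-1.03 ± 0.10), and it fell at 2 h in both genotypes (-1.67 ± 0.10 in cko and -2.15 ± 0.10 in wild type). By 1416982_at the gene rose in cko at 2 h (0.38 ± 0.15), and the wild-type falls were -0.51 ± 0.15 at 2 h and -0.95 ± 0.15 at 12 h. That probe set was higher in cko at 12 h (0.41 ± 0.15). From 2 h to 12 h in wild type 1416981_at rose (0.46 ± 0.10) and 1416982_at fell (-0.44 ± 0.15). The fourth, 1456529_at, had signals of 3.70 to 40.7 and was not tested.

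Foxo3, the other FOXO factor of the set, had no fall called in cko and fell in wild type. At 0 h its signal was 340.0 and 265 in cko and 541 and 582 in wild type. The 2 h signal was 333 and 223 in cko and 247 and 261 in wild type. The 12 h signal was 436 and 512 in cko and 276 and 284 in wild type. The genotypes thus stood apart at 0 h with cko below, overlapped at 2 h and stood apart at 12 h with cko above. The cko response was -0.13 ± 0.17, adjusted p = 0.52 at 2 h and 0.63 ± 0.17, adjusted p = 0.0059 at 12 h, and the wild-type response was -1.10 ± 0.17 at 2 h and -0.96 ± 0.17 at 12 h. Between the genotypes the difference was -0.87 ± 0.17, adjusted p = 0.0018 at 0 h, 0.10 ± 0.17, adjusted p = 0.76 at 2 h and 0.72 ± 0.17, adjusted p = 0.0027 at 12 h. The cko rise at 12 h, which crosses the control-probe sets, was not called without replicate 2 of cko at 0 h (0.46) or replicate 2 of cko at 12 h (0.51). The model with a term for the control-probe set and 1 time effect gave -0.72 at 12 h as the response common to both genotypes. It does not retest the cko response alone. By the second tested probe set, 1434832_at, the cko responses of Foxo3 were -0.24 ± 0.16, adjusted p = 0.2 at 2 h and -0.25 ± 0.16, adjusted p = 0.19 at 12 h. It fell in wild type by this probe set too, at 2 h (-0.94 ± 0.16) and at 12 h (-0.48 ± 0.16), and no genotype difference was called on it. The third, 1450236_at, had signals of 3.58 to 49.9 and was not tested.

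Foxp1 changed little by its brightest probe set, 1435222_at, and its 8 probe sets did not move together. The signal of 1435222_at at 0 h was 11702 and 11842 in cko and 11063 and 11386.5 in wild type. After 2 h the signal was 9511 and 9345 in cko and 10585 and 10013 in wild type. After 12 h the signal was 12072 and 12092 in cko and 11036 and 11846.5 in wild type. The 12 arrays ran from 9345 to 12092, with the lowest at 2 h in cko. The response at 2 h was -0.32 ± 0.049 in cko and -0.12 ± 0.049 in wild type, and both changed sign under median scaling. The wild-type call at 2 h was lost without any single array of the 0 h groups or replicate 2 of the 2 h wild-type group (adjusted p = 0.052 to 0.25). No genotype difference was called on this probe set as deposited. Under quantile normalization it was lower in cko at 0 h (-0.13, adjusted p = 0.030) and 2 h (-0.16, adjusted p = 0.013) and higher at 12 h (0.36, adjusted p = 7.5e-06), and under median scaling it was called higher in cko at 12 h (0.40).

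The probe set 1438802_at read a fall of Foxp1 in both genotypes, with differences of -0.65 ± 0.06 in cko and -0.77 ± 0.06 in wild type at 2 h and of -1.14 ± 0.06 in cko and -0.66 ± 0.06 in wild type at 12 h. The probe set 1455242_at read the opposite at 2 h. Its signal was 781 and 829.7 in cko and 1058 and 1100.2 in wild type at 0 h. It was 3383 and 3126 in cko and 3186 and 3205 in wild type at 2 h, and 3044 and 2528 in cko and 608 and 689.7 in wild type at 12 h. The 6 high arrays are the 6 with a high actin 5′ to 3′ ratio, and in the model with the control-probe set and 1 time effect for both genotypes the term for the set was 2.27 for this probe set (adjusted p = 8.6e-07). For 1435222_at the same term was 0.11 (adjusted p = 0.45). In both cases the term is the genotype difference at 12 h beyond the mean of those at 0 h and 2 h, so it cannot tell set from genotype. The genotype difference at 12 h ranged from -0.75 to 2.07 over the 8 probe sets, with 2 called lower and 3 called higher. At that time the probe sets of Foxp1 share no direction. At 0 h 4 of the 8 were lower in cko, with differences of -0.27 to -0.53, and 0 were higher. At 12 h against 0 h in wild type 4 were lower and 0 higher, while in cko 1 was lower and 3 were higher. At 2 h against 0 h 2 were lower and 2 higher in cko, and 3 were lower and 3 higher in wild type.

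**Figure D2:**
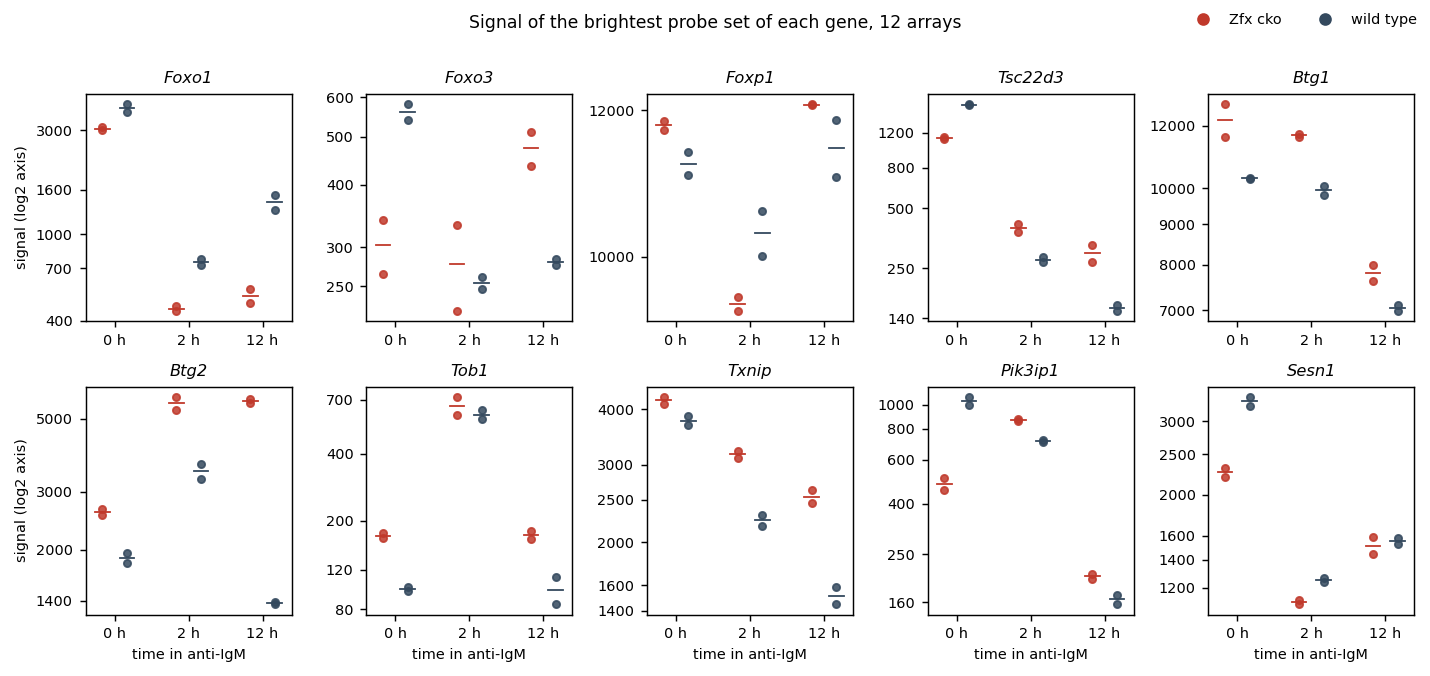
Signal (log2 axis, each panel with its own range) of the brightest probe set of each of the 10 genes on all 12 arrays, by hours in anti-IgM, with cko in red left of wild type in blue-grey. Points are arrays and bars are means of 2 arrays. Foxo1 is lower in cko at each time, Btg2 is higher in cko at each time, and Foxo3, Tsc22d3 and Pik3ip1 are lower in cko at 0 h and higher at 12 h.

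Tsc22d3 fell in both genotypes, less in cko. At 0 h its signal was 1122 and 1142 in cko and 1653 and 1679 in wild type. At 2 h it was 379 and 416 in cko and 268 and 283 in wild type. At 12 h it was 329 and 267 in cko and 164 and 152 in wild type. The cko arrays were below wild type at 0 h and above it at 2 h and 12 h, without overlap. The response at 2 h was -1.47 ± 0.11 in cko and -2.53 ± 0.11 in wild type, and at 12 h it was -1.88 ± 0.11 in cko and -3.28 ± 0.11 in wild type, the largest fall of the 10 genes in wild type. The genotype difference was -0.55 ± 0.11, adjusted p = 0.0025 at 0 h, 0.50 ± 0.11, adjusted p = 0.0055 at 2 h and 0.85 ± 0.11, adjusted p = 2.3e-05 at 12 h. The call at 2 h was lost without replicate 2 of cko at 2 h (0.44, adjusted p = 0.056), and by the mean of the probe sets the gene was called at neither 2 h (0.42) nor 12 h (0.40). A further fall from 2 h to 12 h was -0.40 ± 0.11 in cko and -0.75 ± 0.11 in wild type, and the cko value was -0.34 without replicate 2 of cko at 2 h and -0.26 without replicate 2 of cko at 12 h, neither called.

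The probe set 1420772_a_at of Tsc22d3 gave the same order of genotypes, lower in cko at 0 h (-1.19 ± 0.26) and higher at 2 h (1.18 ± 0.26) and 12 h (1.37 ± 0.26), but it rose in cko at 2 h (1.20 ± 0.26) and fell in wild type (-1.18 ± 0.26). By 1425557_x_at Tsc22d3 fell in both genotypes, with differences of -0.88 ± 0.19 in cko and -1.24 ± 0.19 in wild type at 2 h, with no genotype difference called. The dim 1444365_at, at signals of 8.06 to 39.4, had no call.

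Of the 3 antiproliferative genes that act through CCR4-NOT, Btg1 fell late and Btg2 and Tob1 rose early, by their brightest probe sets. Btg1 signals at 0 h were 12790.2 and 11607 in cko and 10282.5 and 10316 in wild type. At 2 h they were 11726.5 and 11625 in cko and 9795 and 10078 in wild type. At 12 h they were 7619 and 7999.8 in cko and 6985 and 7102 in wild type. The 4 arrays at 12 h were below the 8 earlier ones. The response at 2 h was -0.061 ± 0.052, adjusted p = 0.33 in cko and -0.052 ± 0.052, adjusted p = 0.42 in wild type, not called, and under median scaling it was 0.35 in cko and 0.24 in wild type, both called and higher. At 12 h Btg1 fell, with a difference of -0.64 ± 0.052 in cko and -0.55 ± 0.052 in wild type. It was slightly higher in cko at 0 h (0.24 ± 0.052, adjusted p = 0.0036), 2 h (0.23 ± 0.052, adjusted p = 0.0057) and 12 h (0.15 ± 0.052, adjusted p = 0.031). The 0 h call was lost under quantile normalization (0.026, adjusted p = 0.77), under median scaling (0.13), by the mean of its probe sets (0.10) and without replicate 1 of cko at 0 h (adjusted p = 0.051). All 3 calls were lost without an intensity trend of the variance, and the 12 h call was also lost with no filter on low signals and without replicate 2 of cko at 12 h (0.18) or replicate 1 or 2 of wild type at 12 h (0.12 and 0.072).

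Another Btg1 probe set, 1437455_a_at, already fell at 2 h, with a difference of -0.70 ± 0.08 in cko and -0.76 ± 0.08 in wild type, and was lower in cko at 12 h (-0.67 ± 0.08). The third, 1442018_at, rose at 2 h in cko (0.74 ± 0.11) and in wild type (0.42 ± 0.11). At 12 h it was lower than at 0 h in cko (-0.39 ± 0.11) and in wild type (-2.88 ± 0.11). Its signal at 12 h was 952 and 1018 in cko and 211 and 151 in wild type, a genotype difference of 2.36 ± 0.11. In the model with the control-probe set and 1 time effect, the term for the set was 2.33 for this probe set. The term was -0.89 for 1437455_a_at and -0.089 for the brightest probe set. As for Foxp1, it cannot tell set from genotype. The genotype difference of Btg1 at 12 h therefore depends on the probe set, with 2 higher and 1 lower of 3.

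Btg2 was higher in cko at each of the 3 times and by both of its probe sets. At 0 h its signal was 2664 and 2555 in cko and 1961 and 1820.3 in wild type. The 2 h signal was 5292 and 5813 in cko and 3639 and 3285 in wild type. The 12 h signal was 5580.3 and 5740.0 in cko and 1369 and 1391 in wild type. No cko array overlapped a wild-type array of the same time, and at 12 h the wild-type signal was below its 0 h level while the cko signal of this probe set, 1416250_at, was as high as at 2 h. By the second probe set, 1448272_at, Btg2 fell from 2 h to 12 h in cko too (-0.48 ± 0.065, adjusted p = 3.3e-05). Between the genotypes the difference was 0.46 ± 0.07, adjusted p = 0.00028 at 0 h, 0.68 ± 0.07, adjusted p = 1.4e-05 at 2 h and 2.02 ± 0.07, adjusted p = 7e-11 at 12 h. By 1448272_at it was 0.29 ± 0.065, 0.47 ± 0.065 and 0.62 ± 0.065 at these times. The rise at 2 h was 1.08 ± 0.07 in cko and 0.87 ± 0.07 in wild type, and by 1448272_at it was 0.71 ± 0.065 in cko and 0.53 ± 0.065 in wild type. At 12 h against 0 h the gene rose in cko (1.11 ± 0.07) and fell in wild type (-0.45 ± 0.07). By 1448272_at these were 0.23 ± 0.065 in cko and -0.10 ± 0.065, adjusted p = 0.24 in wild type. The 6 high arrays of 1416250_at are again those with a high actin 5′ to 3′ ratio. In the same model the term for the set was 1.45 (adjusted p = 2e-06), and the responses common to both genotypes were -0.48 at 2 h and -0.39 at 12 h. That term is the genotype difference at 12 h beyond the mean of those at 0 h and 2 h, so it cannot tell set from genotype. The genotype differences at 0 h and at 2 h lie within 1 set of arrays each.

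Tob1 rose at 2 h in both genotypes and was not called at 12 h against 0 h in either. Its signal at 0 h was 166 and 176 in cko and 96.0 and 101 in wild type. After 2 h the signal was 722 and 598 in cko and 573 and 629.9 in wild type. After 12 h the signal was 179.6 and 165 in cko and 112 and 84.1 in wild type. All 4 arrays at 2 h were above the other 8. The rise was 1.85 ± 0.15 in cko and 2.43 ± 0.15 in wild type, and at 12 h the difference from 0 h was 0.0064 ± 0.15, adjusted p = 0.97 in cko and -0.017 ± 0.15, adjusted p = 0.94 in wild type. Tob1 was higher in cko at 0 h (0.71 ± 0.15, adjusted p = 0.0038) and at 12 h (0.73 ± 0.15, adjusted p = 0.0012), and at 2 h the genotypes overlapped (0.13 ± 0.15, adjusted p = 0.64). The model with the control-probe set gave a 2 h response, common to both genotypes, of 1.82 (adjusted p = 2.1e-04). The second probe set, 1440844_at, had signals of 3.09 to 22.7 and was not tested.

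Txnip fell stepwise in both genotypes and less in cko. At 0 h its signal was 4122 and 4270.3 in cko and 3681 and 3871 in wild type. At 2 h it was 3103.5 and 3225 in cko and 2308 and 2184 in wild type. At 12 h it was 2456 and 2624 in cko and 1449.6 and 1583 in wild type. The groups did not overlap at any time, with cko above wild type. The fall at 2 h was -0.41 ± 0.067 in cko (0.0089 under median scaling) and -0.75 ± 0.067 in wild type, and at 12 h it was -0.72 ± 0.067 in cko and -1.31 ± 0.067 in wild type. The genotype difference was 0.15 ± 0.067, adjusted p = 0.11 at 0 h, 0.49 ± 0.067, adjusted p = 0.00015 at 2 h and 0.74 ± 0.067, adjusted p = 5.1e-07 at 12 h. The second probe set, 1415997_at, had signals of 5.49 to 45.9 and was not tested.

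Pik3ip1 ended low in both genotypes, but its brightest probe set started lower in cko and rose there at 2 h. At 0 h the signal of 1428332_at was 507 and 452 in cko and 995 and 1075 in wild type. The 2 h signal was 858 and 878 in cko and 708 and 719 in wild type. The 12 h signal was 208 and 198 in cko and 172 and 157 in wild type. The cko arrays were far below wild type at 0 h and above it, by less, at 2 h and 12 h. The response at 2 h was 0.84 ± 0.10 in cko and -0.53 ± 0.10 in wild type, the wild-type fall not called under median scaling (-0.24). In the model with the control-probe set the 2 h response common to both genotypes was -0.53 (adjusted p = 0.36). From 2 h to 12 h, which in cko stays within 1 set of arrays, the signal fell, with a difference of -2.01 ± 0.10 in cko and -2.01 ± 0.10 in wild type. Between the genotypes the difference was -1.09 ± 0.10, adjusted p = 6.5e-06 at 0 h, 0.28 ± 0.10, adjusted p = 0.071 at 2 h and 0.28 ± 0.10, adjusted p = 0.036 at 12 h. The last call was lost without either replicate of cko at 12 h (adjusted p = 0.14 and 0.068) or replicate 2 of wild type at 12 h (0.16), under quantile normalization (0.22, adjusted p = 0.099), with a pseudocount of 64 and with only the groups compared, and the mean of the probe sets turned it to -0.018.

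The second Pik3ip1 probe set, 1439087_a_at, disagreed with the first on the genotype at 0 h and on the cko response at 2 h. Its signal at 0 h was 574 and 596 in cko and 468 and 364 in wild type, a difference of 0.49 ± 0.16, adjusted p = 0.036. It fell at 2 h, with a difference of -0.87 ± 0.16 in cko and -0.99 ± 0.16 in wild type, and at 12 h, with one of -2.31 ± 0.16 in cko and -1.50 ± 0.16 in wild type. Both probe sets thus read a fall at 12 h in each genotype, and both fell at 2 h in wild type. From 2 h to 12 h 1439087_a_at fell as well, with a difference of -1.44 ± 0.16 in cko and -0.51 ± 0.16 in wild type.

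By its brightest probe set Sesn1 fell in both genotypes by 2 h and recovered in part by 12 h. At 0 h the signal of its brightest probe set was 2208 and 2325 in cko and 3267 and 3427 in wild type. After 2 h the signal was 1125 and 1098 in cko and 1238 and 1271 in wild type. After 12 h the signal was 1587 and 1442 in cko and 1575 and 1529 in wild type. The genotypes stood apart at 0 h, with cko below, and overlapped at 12 h. The fall at 2 h was -1.02 ± 0.07 in cko and -1.40 ± 0.07 in wild type, and the rise from 2 h to 12 h was 0.44 ± 0.07 in cko and 0.30 ± 0.07 in wild type. The genotype difference was -0.56 ± 0.07, adjusted p = 6.1e-05 at 0 h, -0.17 ± 0.07, adjusted p = 0.1 at 2 h and -0.036 ± 0.07, adjusted p = 0.7 at 12 h, the last 0.28 and called under median scaling.

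By 1444376_at the fall of Sesn1 at 2 h was the steepest at that time, in each genotype, of any of the 30 tested probe sets. Its signal was 988 and 899 in cko and 975 and 809 in wild type at 0 h, and 48.0 and 54.8 in cko and 82.1 and 96.9 in wild type at 2 h. The fall was -3.83 ± 0.15 in cko and -3.10 ± 0.15 in wild type, and at 12 h this probe set was lower in cko (-1.58 ± 0.15). By 1438931_s_at the fall at 2 h was -2.17 ± 0.20 in cko and -1.75 ± 0.20 in wild type. That probe set too was lower in cko at 12 h (-0.90 ± 0.20). At 0 h neither 1444376_at (0.084 ± 0.15) nor 1438931_s_at (0.14 ± 0.20) was called between the genotypes. The dimmer 1454699_at was lower in cko at 0 h (-1.13 ± 0.24) and rose in cko at 2 h (0.63 ± 0.24). From 2 h to 12 h 1454699_at fell in cko (-0.93 ± 0.24) and in wild type (-0.95 ± 0.24). Over that step 1444376_at rose in cko (0.71 ± 0.15) and in wild type (1.65 ± 0.15). The probe set 1438931_s_at rose over it in wild type (0.79 ± 0.20) and was not called in cko (0.16 ± 0.20). In wild type all 4 Sesn1 probe sets fell at 2 h and at 12 h. The cko fall at 12 h by the brightest probe set (-0.58 ± 0.07) was -0.16 and not called under median scaling.

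**Figure D3:**
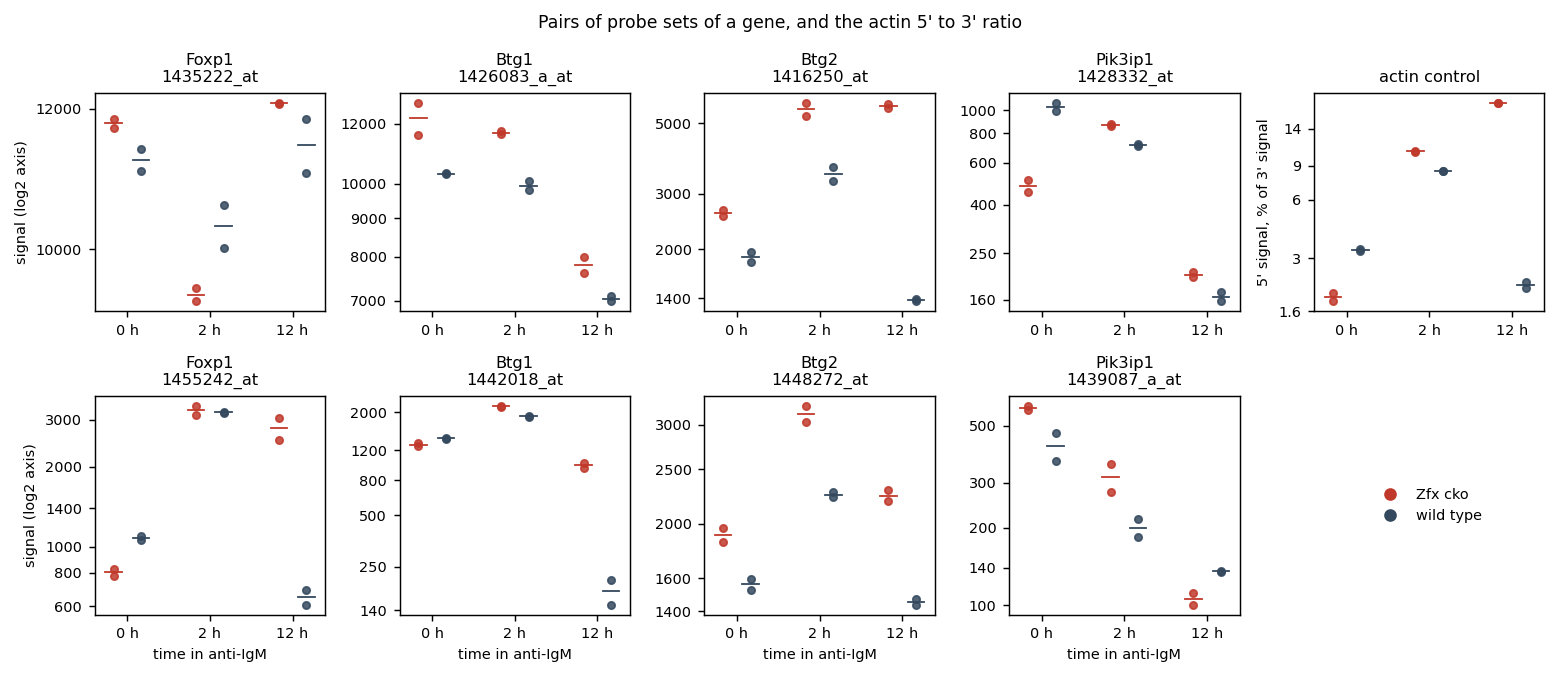
Signal (log2 axis, each panel with its own range) on all 12 arrays of 2 probe sets each of Foxp1, Btg1, Btg2 and Pik3ip1, and the actin 5′ signal as a percentage of its 3′ signal at right, with cko in red left of wild type in blue-grey, points for arrays and bars for means of 2. Foxp1 1455242_at and Btg2 1416250_at are high where the actin ratio is high, in cko at 2 h and 12 h and wild type at 2 h, and the 2 Pik3ip1 probe sets put the genotypes in opposite orders at 0 h.

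Set side by side, the genotype differences split the 10 genes. At 0 h cko was lower for Foxo1, Foxo3, Tsc22d3, Pik3ip1 and Sesn1 and higher for Btg1, Btg2 and Tob1, by the brightest probe set, with Pik3ip1 read the other way by its second probe set. All 3 tested Foxo1 probe sets were lower. Of the 4 Sesn1 probe sets 2 were lower and 2 not called, and the 4 of Tsc22d3 gave the same counts. Foxo3 was not called by 1434832_at (-0.41). Of the 3 Btg1 probe sets 1 was higher and 2 were not called. Under quantile normalization Btg1 was not called (0.026) and Foxp1 was called lower (-0.13). Over all genes 15.3% were lower and 15.6% higher at that time (1867 and 1903 genes, or 2274 and 1151 with each array scaled to a common median). The median of the 10 genes was -0.12, against 0.02 over all genes. At 2 h Foxo1 was lower and Tsc22d3, Btg1, Btg2 and Txnip were higher in cko, against 14.5% lower and 11.7% higher over all genes, with medians of 0.18 and -0.02. These 2 comparisons stay within 1 set of arrays each.

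At 12 h, by the brightest probe set, Foxo1 was lower in cko and 7 genes were higher, namely Foxo3, Tsc22d3, Btg1, Btg2, Tob1, Txnip and Pik3ip1. Foxp1 and Sesn1 were not called. By other probe sets Foxo1 was lower (-1.03, 1416981_at) or higher (0.41, 1416982_at), and Btg1 was higher (2.36, 1442018_at) or lower (-0.67, 1437455_a_at). Foxo3 by 1434832_at (-0.18) and Pik3ip1 by 1439087_a_at (-0.32) were not called. Sesn1 was lower by 1444376_at (-1.58) and 1438931_s_at (-0.90) and not called by 1454699_at (0.47). Of the 8 Foxp1 probe sets 2 were lower and 3 higher. Of the 4 Tsc22d3 probe sets 2 were higher and 2 not called. Over all genes 29.7% were lower and 21.2% higher (3617 and 2590 genes), and with each array scaled to a common median 2117 were lower and 3812 higher. The median of the 10 genes was 0.50, against -0.17 over all genes, which moved to 0.09 under that scaling. The genotype and the control-probe set cannot be told apart at 12 h. By their brightest probe sets Foxo1 and Btg2 were called in opposite directions at each of the 3 times, Foxo1 lower and Btg2 higher in cko. The Foxo1 call at 0 h was lost with certain single arrays left out and without an intensity trend. By 1416982_at Foxo1 was not called at 2 h (0.21).

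**Figure D4:**
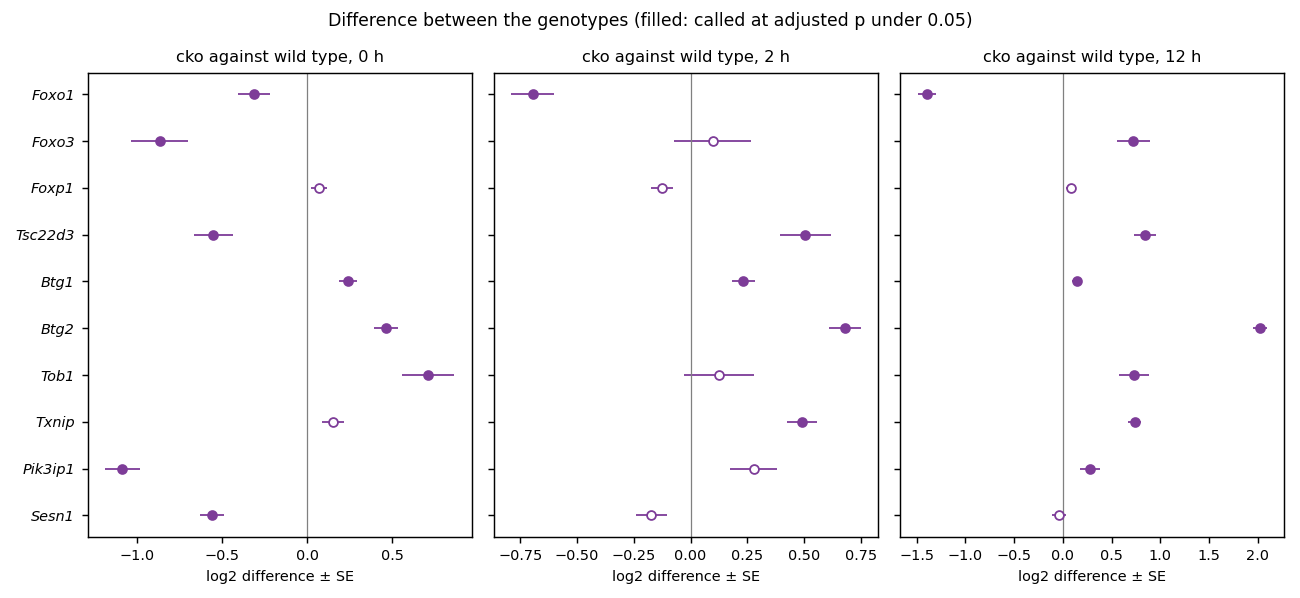
Log2 difference ± SE of cko against wild type for the brightest probe set of each gene at 0, 2 and 12 h, with filled points for calls at an adjusted p under 0.05 and a separate horizontal range in each panel. Foxo1 lies left of 0 and Btg2 right of 0 in each panel, and Tsc22d3 lies left of 0 at 0 h and right of it at 2 h and 12 h.

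The later step, from 2 h to 12 h, separated early from lasting changes. In cko 5 of the 10 genes were lower at 12 h than at 2 h (Tsc22d3, Btg1, Tob1, Txnip and Pik3ip1) and 3 higher (Foxo3, Sesn1 and Foxp1, which turned the other way by the mean of its probe sets), against 18.4% lower and 29.8% higher over all genes and with medians of -0.14 and 0.10. In wild type 6 of the 10 genes were lower (Tsc22d3, Btg1, Btg2, Tob1, Txnip and Pik3ip1) and 3 were higher (Foxo1, Foxp1 and Sesn1). Other probe sets did not all follow. In wild type 1416982_at of Foxo1 (-0.44) and 1454699_at of Sesn1 (-0.95) were lower, and 1437455_a_at of Btg1 was higher (0.40). Over their tested probe sets Foxo1 had 1 lower and 2 higher, Sesn1 1 and 3, Btg1 2 and 1 and Foxp1 4 and 1. In cko Sesn1 had 1 lower and 2 higher, and Foxp1 2 and 2. In wild type 21.8% of all genes were lower and 35.0% higher (2662 and 4267 genes, or 3473 and 2991 under median scaling), and the medians were -0.53 for the 10 genes and 0.26 for all genes. There Foxp1 turned the other way under median scaling, quantile normalization and the mean of its probe sets, and Sesn1 was not called under median scaling (0.0098). The Foxp1 rise in wild type was 0.15 ± 0.049, and it was 0.11 without the second 2 h wild-type array and 0.10 without the second 12 h wild-type array, neither called. For Btg2 the step was 0.029 ± 0.07, adjusted p = 0.78 in cko and -1.32 ± 0.07, adjusted p = 1.5e-09 in wild type.

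Whether the genotypes answered differently was tested by the interaction, the cko response minus the wild-type response. At 2 h it was called for 5 of the 10 genes, all with a positive sign, meaning a smaller fall or a rise in cko: Foxo3, Tsc22d3, Txnip, Pik3ip1 and Sesn1. For Sesn1 this is not shared by all probe sets: 1444376_at was called with the opposite sign (-0.73 ± 0.21, adjusted p = 0.028), 1454699_at was called positive (1.59 ± 0.34) and 1438931_s_at was not called (-0.42 ± 0.28). Pik3ip1 was not called by 1439087_a_at (0.12 ± 0.23, adjusted p = 0.77). Tsc22d3 was called positive by 1420772_a_at (2.38 ± 0.37) and not called by 1425557_x_at (0.36 ± 0.27) or the dim 1444365_at (0.49 ± 0.48). Foxo1, not called by its brightest probe set, was called positive by 1416981_at (0.48 ± 0.14) and 1416982_at (0.89 ± 0.21). Over all genes 19.0% were called (1349 lower and 970 higher, or 782 and 1256 under median scaling). The median of the 10 genes was 0.28, against -0.04 over all genes. The largest were Pik3ip1 (1.36 ± 0.15, adjusted p = 3.8e-05) and Tsc22d3 (1.06 ± 0.16, adjusted p = 0.00053). The count was 3 without replicate 1 of cko at 0 h, without replicate 1 of cko at 2 h or without the second 0 h wild-type array, and 2 without an intensity trend of the variance. By single genes, Foxo3 was not called without replicate 2 of cko at 0 h (0.79) or replicate 1 of cko at 2 h (0.69). Txnip was not called without replicate 1 of cko at 0 h, replicate 2 of cko at 2 h, or replicate 2 of wild type at either time (0.30 to 0.31). Sesn1 was not called without replicate 1 of cko at 0 h or at 2 h, the second 0 h or first 2 h wild-type array (0.35 to 0.37).

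At 12 h the interaction was called for 7 of the 10 genes, with Foxo1 negative (-1.08 ± 0.13, adjusted p = 1.8e-05) and Foxo3, Tsc22d3, Btg2, Txnip, Pik3ip1 and Sesn1 positive. Over all genes 42.6% were called (2937 lower and 2256 higher, or 1431 and 3624 under median scaling), and the medians were 0.55 for the 10 genes and -0.17 for all genes. The largest were Foxo3 (1.59 ± 0.24, adjusted p = 0.00011) and Btg2 (1.56 ± 0.10, adjusted p = 4.1e-08). This interaction crosses the control-probe sets. Other probe sets gave the opposite sign for Foxo1 (1.08 ± 0.21 by 1416982_at), Pik3ip1 (-0.80 ± 0.23 by 1439087_a_at) and Sesn1 (-1.67 ± 0.21 by 1444376_at). For Btg2 both probe sets were positive (0.33 ± 0.092 by 1448272_at). Foxo3 was not called by its other tested probe set, 1434832_at (0.23 ± 0.22, adjusted p = 0.45).

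The genes around the 10 in the same pathways were counted from lists written from general knowledge. The 10 genes are in some of them: 3 each in the forkhead and the BTG and TOB lists, 1 each in those of FOXO targets, PI3K signalling, thioredoxin, TSC22 and sestrin genes, and 0 in the other 2. For all the lists, 15.3% of all genes were lower and 15.6% higher in cko at 0 h, 39.0% were lower and 23.8% higher at 2 h in cko, and 36.0% were lower and 23.3% higher at 2 h in wild type. Of 13 forkhead genes tested, Foxo1, Foxo3 and Foxp1 among them, 7 fell and 1 rose at 2 h in cko, and 9 fell and 0 rose in wild type, there with a median of -0.59 against -0.24 over all genes. Foxo4, a FOXO factor (-2.79 ± 0.37), Foxj2 (-1.02 ± 0.12) and Foxm1, which drives mitotic genes (-1.01 ± 0.26), were the largest wild-type changes outside the 10. At 0 h 6 forkhead genes were lower in cko and 0 higher, Foxk1 (-0.74 ± 0.09) and Foxj2 (-0.64 ± 0.12) among them, with a median of -0.26 against 0.02 over all genes.

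Of 35 known FOXO target genes, 16 fell and 12 rose at 2 h in cko, and 19 fell and 10 rose at 12 h, against 39.0% of all genes lower and 23.8% higher at 2 h and 32.8% and 25.7% at 12 h. In wild type 14 fell and 10 rose at 2 h, and 21 fell and 8 rose at 12 h, with medians of -0.10 and -0.70 against -0.24 and 0.03 over all genes, of which 36.0% were lower and 23.3% higher at 2 h and 22.9% and 24.5% at 12 h. The targets moved both ways at 2 h in wild type: the catalase gene Cat (-2.65 ± 0.18) and Cdkn1b, the inhibitor p27 of cyclin-dependent kinases (-2.41 ± 0.16), fell, and the stress gene Gadd45b rose (2.92 ± 0.063). At 0 h 12 targets were lower and 5 higher in cko, with the mitophagy kinase gene Pink1 (-0.996 ± 0.11) and the insulin receptor gene Insr (-0.88 ± 0.24) among the lower.

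Upstream of FOXO, 14 of 25 genes of PI3K, AKT and SGK signalling fell and 9 rose at 2 h in cko, with a median of -0.54 against -0.32 over all genes. In wild type 10 fell and 5 rose, with a median of -0.23 against -0.24, which is near the 36.0% lower and 23.3% higher of all genes. The PI3K subunit genes Pik3cg (-2.45 ± 0.11), Pik3r5 (-1.91 ± 0.20) and Pik3r2 (-1.83 ± 0.21) led the wild-type falls. At 0 h 7 were lower and 4 higher in cko. Phlpp2, a phosphatase that acts on AKT, was lower (-1.57 ± 0.13), and Sgk1, a kinase that phosphorylates FOXO factors, was higher (0.96 ± 0.088). Of 25 genes for enzymes that modify FOXO factors and for 14-3-3 proteins that hold them in the cytoplasm, 11 fell and 10 rose at 2 h in wild type. The methyltransferase gene Prmt1 (2.21 ± 0.071) and the acetyltransferase gene Crebbp (2.15 ± 0.10) rose, and the p38 kinase gene Mapk14 fell (-1.90 ± 0.15). At 0 h Prmt1 was higher in cko (1.01 ± 0.071) and the mitotic kinase gene Cdk1 was lower (-1.30 ± 0.29), among 4 higher and 7 lower.

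Of 20 genes of the BTG and TOB family and the CCR4-NOT deadenylase, 3 fell and 8 rose at 2 h in cko, with the same counts in wild type and a wild-type median of 0.02 against -0.24 over all genes. Tob2, the relative of Tob1, rose in wild type (2.72 ± 0.14), as did the deadenylase subunit gene Cnot8 (1.51 ± 0.11), and the poly(A) ribonuclease gene Parn fell (-1.80 ± 0.078). At 12 h the counts in wild type were 7 lower and 5 higher, against 22.9% lower and 24.5% higher over all genes. At 0 h Parn (-0.75 ± 0.078) and Cnot6l (-0.56 ± 0.067) were lower in cko, among 6 lower and 4 higher. Of 15 arrestin-domain and thioredoxin genes, 9 fell and 5 rose at 2 h in wild type. Arrdc3, a relative of Txnip, fell (-2.09 ± 0.20), and the thioredoxin reductase genes Txnrd1 (2.80 ± 0.16) and Txnrd3 (2.91 ± 0.11) rose. At 0 h the thioredoxin gene Txn1 (-0.66 ± 0.058) and Arrdc3 (-0.58 ± 0.20) were lower in cko, among 6 lower and 2 higher.

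Of 13 genes of the TSC22 family and the glucocorticoid response, Tsc22d3 among them, 3 fell and 3 rose at 2 h in wild type. The mTORC1 inhibitor gene Ddit4 (1.23 ± 0.081) and the clock gene Per1 (1.08 ± 0.10) rose, and the MAP kinase phosphatase gene Dusp1 fell (-0.89 ± 0.089). At 0 h 8 of the 13 were higher and 2 lower in cko, with a median of 0.35 against 0.02 over all genes. Ddit4 (0.78 ± 0.081) was among the higher ones, while Tsc22d3 was among the lower. Of 23 genes of the sestrin, GATOR, AMPK and TSC route to mTORC1, 11 fell and 7 rose at 2 h in cko and 8 fell and 6 rose in wild type, the last near the 36.0% lower and 23.3% higher of all genes. In wild type Tsc2 (-1.47 ± 0.28) and the GATOR1 gene Nprl3 (-1.58 ± 0.20) fell, and the GATOR2 gene Seh1l rose (1.63 ± 0.10). At 0 h 3 were lower and 3 higher in cko, with the GATOR2 genes Mios (-0.68 ± 0.13) and Wdr59 (1.09 ± 0.24) on opposite sides.

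Of 30 other genes linked to lymphocyte quiescence, none of them among the 10, 24 fell and 4 rose at 2 h in cko and 21 fell and 3 rose in wild type. The median was -0.81 in cko, against -0.32 over all genes, and -1.04 in wild type, against -0.24 over all genes. Of all genes 39.0% were lower at 2 h in cko and 36.0% in wild type. The B cell markers fell alongside, with medians at 2 h of -1.51 in cko and -1.06 in wild type, and their part in these falls was not tested. At 12 h 22 fell and 4 rose in cko and 21 fell and 2 rose in wild type, against 32.8% of all genes lower in cko and 22.9% in wild type. Klf13 fell (-3.19 ± 0.10) and the repressor gene Gfi1 rose (3.60 ± 0.10) at 2 h in wild type. At 0 h 11 were lower and 9 higher in cko, with Ndrg1 (1.25 ± 0.15) and the lymphocyte factor gene Ets1 (0.99 ± 0.061) among the higher.

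The 10 genes varied among themselves over the 6 groups. From their lowest to their highest group mean, Foxp1 spanned 0.36 and Tsc22d3 3.28 on the log2 scale. The lowest group was wild type at 12 h for 6 genes, cko at 2 h for 3 and wild type at 2 h for Foxo3, and the highest was wild type at 0 h for Foxo1, Foxo3, Tsc22d3, Pik3ip1 and Sesn1. Txnip lay nearest the mean pattern of the 10, with a root mean square distance of 0.18 over the 6 group means, and Tob1 (1.09) and Foxo1 (1.04) lay farthest. Among all genes tested, the patterns nearest that mean were those of E2f2 (0.07), Cpm (0.09), Ms4a4b (0.09), Trak2 (0.09) and Atxn7l2 (0.09). The nearest pattern to single genes was Hk3 for Foxo1 (0.07), H2-Bl for Foxo3 (0.04), Hagh for Foxp1 (0.04), Gm16794 for Tsc22d3 (0.23) and Scnn1b for Btg1 (0.08). It was Haspin for Btg2 (0.09), Nfe2l2 for Tob1 (0.23), Ccl9 for Txnip (0.09), Arhgap15 for Pik3ip1 (0.29) and Kctd18 for Sesn1 (0.10). These are descriptions over 6 means that share the same arrays.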

How the data were processed

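The deposited values are signal intensities on a linear scale, 1 per probe set and array, and the submitters' processing notes name GCOS 1.4. How probes were summarised, and which were detected, is stated in no source used here. Per the labels' protocols, 100 ng of RNA went through 2 rounds of linear amplification and each hybridization took 10 µg of product on a Mouse Genome 430 2.0 array. Trimmed of 2% at either end, the mean signal was 250.0 on every array, so the signals were already scaled, and medians were 29.1 to 40.3. The 12 arrays fell into 6 groups of 2 by their titles, and precision is limited by having 2 arrays a group.

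The scale was log2(signal + 16), without another normalization. Of 45101 probe sets, 64 controls, 9160 without a gene symbol and 932 with several were left out, and 99.42% of the 34945 others matched the RefSeq table by Entrez identifier. Tested were those whose mean passed the 40th percentile (5.14, log2), 21906 probe sets of 12190 genes. limma 3.58.1 in R 4.3.3 fitted 1 mean per group on all arrays (6 residual and 7.46 prior degrees of freedom, eBayes with an intensity trend), with 11 two-sided contrasts. The procedure was tested on simulated data. The alternatives were quantile normalization, median scaling, other pseudocounts and filters, no intensity trend, array weights, only the groups compared, a replicate block, other ways of choosing probe sets, a 2-fold threshold, a term for the control-probe set and each array left out in turn.

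The 10 genes, the lists and the tests were chosen with earlier results of these data known. The 10 genes are always named. Of each list the 3 largest called differences at 2 h against 0 h in wild type and the 2 largest of cko against wild type at 0 h are named, outside the 10 genes, with the 5 patterns nearest the mean of the 10 and the 1 nearest to each.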

Additional observations from a re-analysis of the deposited data

Results flagged for a closer look

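The response to anti-IgM differed between the genotypes, by the test of the interaction (limma, cko response minus wild-type response, log2 ± SE), for several of the 10 genes. At 2 h these were Pik3ip1 (1.36 ± 0.15, adjusted p = 3.8e-05), Tsc22d3 (1.06 ± 0.16, adjusted p = 0.00053), Foxo3 (0.96 ± 0.24, adjusted p = 0.014), Sesn1 (0.39 ± 0.10, adjusted p = 0.016) and Txnip (0.34 ± 0.094, adjusted p = 0.024). The Sesn1 probe set 1444376_at was called in the opposite direction at 2 h (-0.73 ± 0.21, adjusted p = 0.028), and the Pik3ip1 probe set 1439087_a_at was not called (0.12 ± 0.23). Foxo3, Sesn1 and Txnip were not called when certain single arrays were left out. At 12 h they were Foxo3 (1.59 ± 0.24, adjusted p = 0.00011), Btg2 (1.56 ± 0.10, adjusted p = 4.1e-08), Tsc22d3 (1.40 ± 0.16, adjusted p = 8.7e-06), Pik3ip1 (1.37 ± 0.15, adjusted p = 4.4e-06), Txnip (0.59 ± 0.094, adjusted p = 0.00019), Sesn1 (0.52 ± 0.10, adjusted p = 0.00074) and, in the opposite direction, Foxo1 (-1.08 ± 0.13, adjusted p = 1.8e-05). At 12 h the genotype cannot be told apart from the set of arrays by control probes. The Foxo3 probe set 1434832_at was not called at 12 h (0.23 ± 0.22), and other probe sets of Foxo1, Pik3ip1 and Sesn1 were called with the opposite sign.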

How the results depend on the processing

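Of the 110 differences of single genes, all kept their direction and call under a pseudocount of 1, a filter at the 60th percentile, only the brightest probe set of each gene and the replicate block. With the replicate block 8 of the 10 genes were called between the genotypes at 0 h, as without it, and it changed no call. Same-numbered arrays did not deviate together (r from -0.013 to 0.021 over 15 pairs of groups), so the numbers do not pair them. Over the values with 1 array left out in turn, 1287 kept their call, 32 lost it, 1 gained it and 0 changed sign, and the number of the 10 genes called on the interaction at 2 h ran from 3 to 5. Without an intensity trend that number was 2. With a 2-fold threshold as well, cko differed from wild type for 1, 0 and 2 of the 10 genes at 0, 2 and 12 h, with 5 responses called at 2 h in cko and 5 in wild type, 4 at 12 h in cko and 5 in wild type, 2 and 3 from 2 h to 12 h, and 2 on the interaction at 2 h. These counts are not set against the share of all genes at that threshold.

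Under quantile normalization Foxp1 changed sign between the genotypes at 0 h (-0.13), at 2 h in cko (0.0017) and in wild type (0.032), at 12 h in wild type (-0.23) and from 2 h to 12 h in wild type (-0.26). Btg1 did so at 2 h in cko (0.29) and on the interaction at 12 h (0.38). Under median scaling Foxp1 changed sign at 2 h in cko (0.096) and in wild type (0.16) and from 2 h to 12 h in wild type (-0.15), Btg1 at 2 h in cko (0.35) and in wild type (0.24) and on the interaction at 12 h (0.33), Txnip at 2 h in cko (0.0089) and Sesn1 between the genotypes at 12 h (0.28). With probe sets averaged by gene, Foxp1 changed sign at 2 h in cko (0.23) and in wild type (0.24), at 12 h in wild type (-0.30) and from 2 h to 12 h in cko (-0.038) and in wild type (-0.54). Pik3ip1 did so at 2 h in cko (-0.016) and between the genotypes at 12 h (-0.018), Btg2 from 2 h to 12 h in cko (-0.23), and on the interaction at 12 h Btg1 (0.51) and Sesn1 (-0.15). With a term for the control-probe set and 1 time effect for both genotypes, Btg2 changed sign at 2 h in both (-0.48), at 12 h in cko (-0.39) and from 2 h to 12 h in wild type (0.083), Pik3ip1 at 2 h in cko (-0.53) and Foxo3 at 12 h in cko (-0.72). In that model these are responses common to both genotypes, so they do not retest the response of 1 genotype alone. The cause was not tested. No detection limit of a probe set was given, and those of low signal were not tested.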
